A study of Saccharomyces cerevisiae with 236 samples.

Results

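The genes described here are 39 Saccharomyces cerevisiae genes that carry cargo from the endosome to the vacuole, and each was followed through the strain that lacks it. They were chosen by name and function: the subunits of the ESCRT-0, ESCRT-I, ESCRT-II and ESCRT-III complexes, the factors that take ESCRT-III apart or remove ubiquitin from its cargo, the retromer, the tethering complexes HOPS and CORVET with their shared class C core, the endosomal fusion machinery, the Vps34 lipid kinase complex, VPS1 and VPS13. This choice was made with earlier results of these data known. The array held 42 strains and 83 tags for these 39 genes, out of 4993 genes, 5179 strains and 10198 tags in all. DID4, VAM6 and VPS5 had 2 strains each, and every other gene had 1. A gene is therefore represented by a single deletion strain in most cases, and a defect of that strain cannot be told apart from a second change it may carry.

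Each deletion strain carries an uptag and a downtag, short DNA barcodes read on a TAG4 microarray, so that pooled strains could be followed after 5 generations of competitive growth. The deletions were held in 3 collections. YKO, the original collection used here as homozygous diploids in BY4743, is auxotrophic for histidine, leucine and uracil. PB is the MATa haploid collection in BY4741 made prototrophic by pHLUM, a single-copy plasmid with wild-type HIS3, LEU2, URA3 and MET17. BC is a MATa haploid collection made prototrophic by backcrossing, and all its strains also lack the arginine transporter gene CAN1, replaced by an STE2 promoter driving the fission yeast HIS5, and the lysine transporter gene LYP1. Ploidy, marker repair and construction history changed together between YKO and the other collections, so their parts in a difference cannot be told apart.

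The pools were grown in synthetic complete medium (SC), in dropout media (SC lacking 1 nutrient: uracil in URA–, histidine in HIS–, leucine in LEU–, methionine in MET–, adenine in ADE–, and arginine, glutamine, glycine, lysine, serine, threonine or tryptophan in media named the same way), and in minimal medium (MM). They were also grown in rich medium (YPD), in 3% glycerol as carbon source (YPG), and with 2% DMSO, 200 µM cisplatin (a DNA cross-linker), 32 µM CCCP or 6 µM FCCP (both proton ionophores, or uncouplers), or 125 µM of a quinolone, PCID 16001701. YKO was not grown in HIS–, LEU– or URA–, and its MM was supplemented with histidine, leucine, lysine, methionine and uracil. A condition had 2 to 4 arrays, apart from 6 for the quinolone in BC, against 4 SC arrays in YKO and in PB and 3 in BC. YPD had 8 or 9 arrays and YPD with DMSO had 7 to 9. The labels describe aliquots of pools and do not say that replicates were separate cultures, so the p-values below measure only the spread between these arrays.

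Proteins marked with ubiquitin for destruction are taken from the endosomal membrane into vesicles inside the endosome by the ESCRT complexes, which act in sequence, and the vesicles reach the vacuole lumen when the endosome fuses with the vacuole. The retromer carries sorting receptors the other way, from the endosome to the Golgi. HOPS and CORVET tether endosomes and vacuoles before fusion, Vps21 is the endosomal Rab GTPase, Vps9 activates it, Vac1 (encoded by PEP7), Vps45 and the t-SNARE Pep12 act with it at the endosome, and Vps34 makes the phosphatidylinositol 3-phosphate that recruits several of them. In yeast, loss of these genes is known for missorting of vacuolar hydrolases, and plasma membrane permeases for amino acids and uracil are among the cargo that ESCRTs sort.

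All values are log2 tag intensities as deposited. A tag was called present in an array when a mixture of 2 normal distributions, fitted to the control arrays of a collection, gave it a posterior over 0.5 of belonging to the brighter group. The present group of SC arrays centred on 9.57 in YKO, 9.72 in PB and 9.55 in BC, the background group on 5.88, 6.15 and 5.58, and the boundary lay at 7.40, 7.98 and 7.35. The fitness defect (FD) score is the median log2 intensity of the control arrays minus that of the treated arrays, so an FD score of 1 is a halving of the signal and a strain already close to background can score little. A strain was called defective when its FD score was at least 1 and its p-value from limma, adjusted by Benjamini and Hochberg over all strains tested (q), was under 0.05. The main reading tested only strains with every tag present in every control array (3162 strains in YKO, 2194 in PB and 2430 in BC for SC), and a wider reading tested strains with at least 1 such tag (4363, 4115 and 4001). No 2 arrays held identical values.

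Strains of this pathway were detected less completely than the collections as a whole. In SC, 29 of the 39 genes had a strain with at least 1 tag present in every array in YKO (74.4%), 25 in PB (64.1%) and 15 in BC (38.5%), where 4351, 4043 and 3993 of the 4993 genes on the array were detected by the same rule (87.1% in YKO). With every tag required, 20, 9 and 9 genes remained, or 51.3%, 23.1% and 23.1% against 63.2%, 43.5% and 48.6% of all genes. No test was made of these shares, since the genes were not drawn at random.

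Detection, here at least 1 tag present in every SC array of a collection, differed by role. ESCRT-II, the complex that links ESCRT-I to ESCRT-III, was complete: VPS25, VPS36 and SNF8 were present in all 3 collections. ESCRT-III, whose filaments cut the vesicles free, had 3 of 4 strains in YKO (SNF7, VPS20, VPS24), 3 in PB (SNF7, VPS20, DID4) and 0 in BC. VPS4, the ATPase that disassembles ESCRT-III, BRO1, which recruits the deubiquitinase, and DOA4, that deubiquitinase, were present in YKO and PB, and all 3 were missing from BC. Over the 16 ESCRT and disassembly genes, 15 were detected in YKO, 13 in PB and 5 in BC. The 23 other genes gave 14, 12 and 10.

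Of ESCRT-0, which gathers ubiquitinated cargo, HSE1 was present in every collection and VPS27 in YKO and PB. ESCRT-I had STP22 (the yeast TSG101) in every collection, SRN2 in YKO and PB, and VPS28 and MVB12 in YKO alone. The retromer cargo-selective subunits VPS35 and PEP8 and the sorting nexin VPS17 were present in every collection, the sorting nexin VPS5 in YKO and PB and VPS29 in none. Of the class C core of the tethers, PEP3 was present in YKO and PB and PEP5, VPS16 and VPS33 in none. HOPS was represented by VPS41 in YKO and PB and VAM6 in PB and BC, and CORVET by VPS3 and VPS8 in YKO only. VPS21 and VPS9 were present throughout, PEP7 and PEP12 in YKO only and VPS45, an SM protein of endosomal fusion, in none. VPS38, the subunit that directs the Vps34 kinase to endosomal sorting, was present throughout, VPS34 itself only in BC (1 tag), and the kinase-anchoring VPS15 in none. VPS13, a lipid transfer protein, was present throughout and VPS1, a dynamin-like GTPase, in PB and BC. In YPD 28 genes were detected in YKO, 26 in PB and 14 in BC, and there VPS29 had 1 tag present in YKO and in PB and VPS24 in PB.

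**Figure D1:**
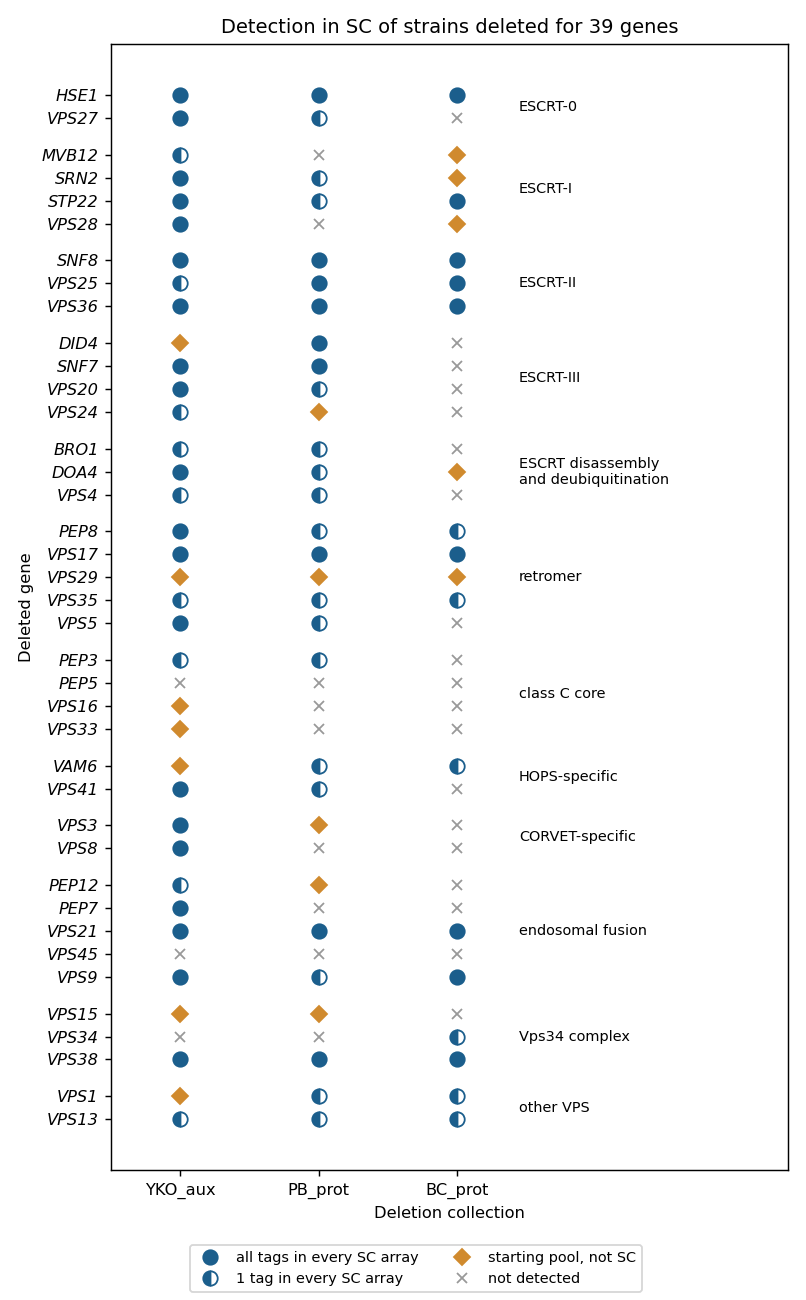
Detection in SC of the strains deleted for the 39 genes, with genes as rows grouped by role and the 3 collections as columns. Filled circles mark every tag present in every SC array, and half-filled circles at least 1 tag. Diamonds mark strains present in the starting pool with no tag present in every SC array, and crosses strains not detected by either rule. Apart from DID4 in YKO and VPS24 in PB, the ESCRT-III and disassembly genes have circles in YKO and PB and none has one in BC, and 12 genes have circles in all 3 columns.

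Several strains were present in the starting pools and had no tag present in every SC array. At least 1 tag was present in all 5 starting pool arrays for 36 genes in YKO, 30 in PB and 20 in BC, and no gene was present in SC without being present in the starting pool. By that rule the strains present in the starting pool and not in SC were DID4, VPS29, VPS16, VPS33, VAM6, VPS15 and VPS1 in YKO. In PB they were VPS24, VPS29, VPS3, PEP12 and VPS15, and in BC MVB12, SRN2, VPS28, DOA4 and VPS29. Some of these were seen in part of the SC arrays, as given below. The starting pool arrays were normalized apart from the others, so their levels were not set against SC. The study's methods state that some strains added to later releases were left out of the YKO pool, and which these were was not used here.

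The BC shortfall depended in part on the array. Counting each SC array on its own, a tag was present for 17, 24 and 20 of the genes in BC arrays 1, 3 and 4, for 30 to 32 in the YKO arrays and for 26 to 29 in the PB arrays. MVB12 and SRN2 had a tag present in all 3 BC arrays, but not the same tag. DOA4, VPS28 and VPS29 were seen in 2 BC arrays, and SNF7, VPS3, VPS41 and PEP3 in 1. In YKO, VPS29 and VPS1 had a tag present in 3 of the 4 SC arrays, VPS33 in 2 and VPS15 in 1. In PB, VPS29, VPS3 and VPS24 had a tag present in 3 of the 4, and VPS28 in 1. Over all genes the shares per array were close together, from 83.7% to 87.1% in BC.

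Across the 54 tested comparisons, 12 defects were called among these genes in the main reading (608 strain-by-condition tests of 22 strains) and no strain was called as gaining. They fell on 5 strains, and 11 of the 12 were in PB: SNF8, VPS25 and VPS36, the complete ESCRT-II, and SNF7, the main filament subunit of ESCRT-III. The remaining call was PEP7 in YKO. In dropouts and MM, PB also had the highest share of calls over all strains, at 0.596% of dropout tests and 3.78% in MM. The shares were 0.144% and 1.14% in YKO and 0.0377% and 0.617% in BC. In 10 of the 12 the medium was HIS–, LEU–, URA– or MM in PB, that is, media without a nutrient whose synthesis depends on a pHLUM gene. In none of the 12 did treated and control arrays overlap. The rule for a call itself favours this, and overlap was not counted over all strains. All dropout comparisons of a collection share its SC arrays, so they are not independent of each other.

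In the PB dropout media 8 calls came from the 9 genes tested in 12 media, where 0.596% of all strain-by-medium tests were called. Medium by medium, the calls were 2 of 9 genes in HIS– (1.91% of all strains), 2 of 9 in LEU– (2.19%), 4 of 9 in URA– (1.64%) and 2 of 9 in MM (3.78%). The median FD score of the 9 genes was 0.50 in HIS–, 0.41 in LEU–, 0.73 in URA– and 0.29 in MM, against -0.05, -0.09, -0.13 and -0.13 over all strains. No gene was called in the 9 other dropout media, where limma gave an unadjusted p under 0.05 for 3 of 9 genes in MET–, 1 in SER– and 0 in each of the other 7. The share of all strains at an unadjusted p under 0.05 was not counted. Such counts, here and below, are therefore not read as a result about these genes. The 6 ESCRT strains among the 9 (SNF8, VPS25, VPS36, SNF7, DID4, HSE1) had a median FD score of 1.00 over HIS–, LEU–, URA– and MM and -0.01 over the 9 other dropouts. That first median pools unlike strains. In HIS–, LEU–, URA– and MM, SNF8, VPS25, VPS36 and SNF7 ran from 0.72 to 1.68, and DID4 and HSE1 from -0.38 to 0.12. For the 3 others (VPS17, VPS21, VPS38) the medians were 0.19 and 0.03.

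**Figure D2:**
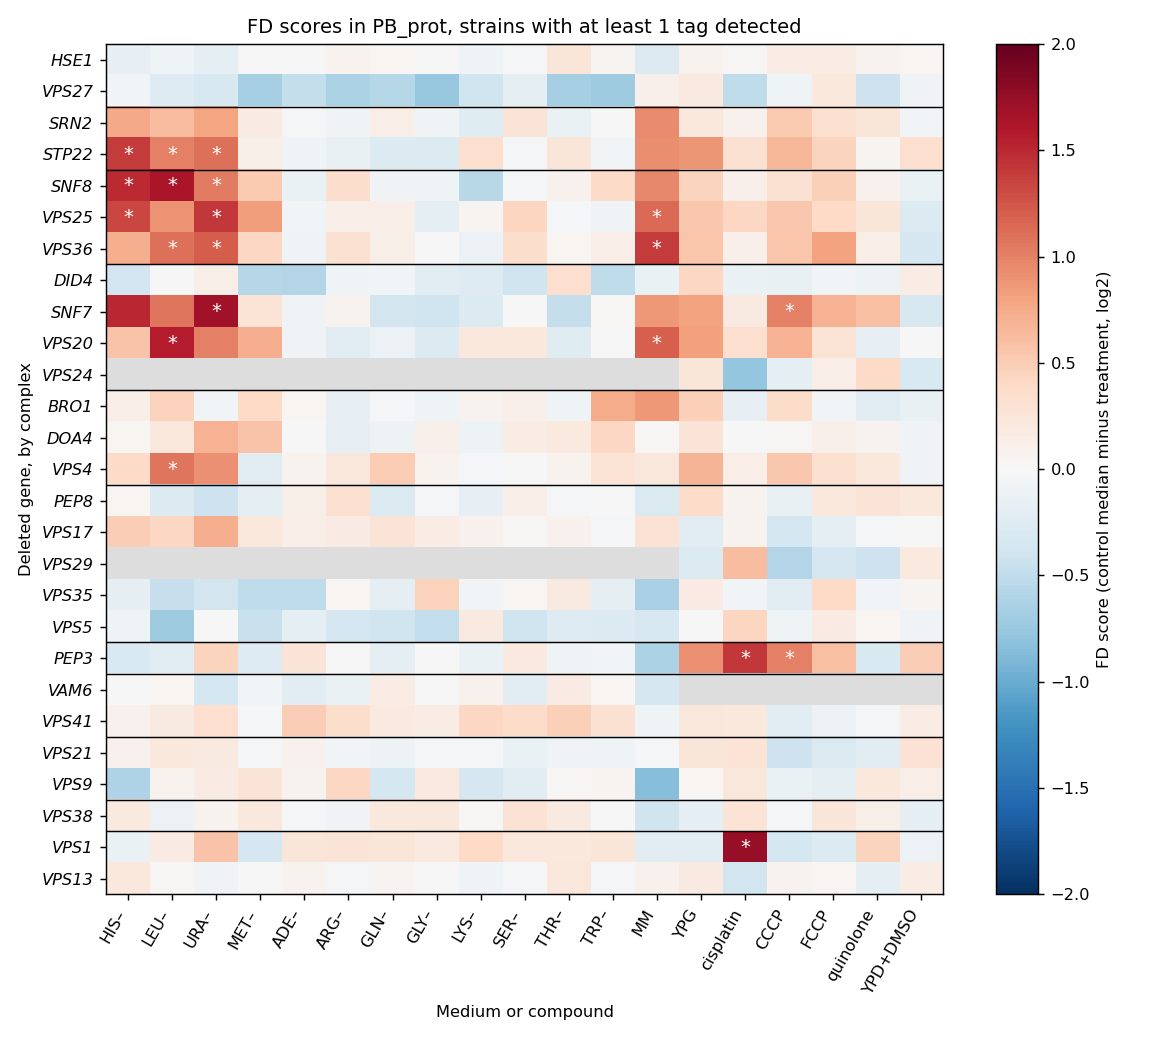
FD scores (log2 units, control minus treatment) of the PB strains in 19 conditions, with strains as rows grouped by role and conditions as columns; stars mark defects called in the wider reading and grey cells strains not detected in that set of controls. The stars gather in the HIS–, LEU–, URA– and MM columns of the ESCRT-I, ESCRT-II and ESCRT-III rows. VPS4 has a star in LEU–, and SNF7, PEP3 and VPS1 have stars on the rich-medium side.

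SNF8 (YPL002C) encodes an ESCRT-II subunit. In PB its uptag read 8.90, 8.75, 9.56 and 8.94 in the SC arrays, and 7.43, 7.39 and 8.08 in HIS–, 7.29, 7.87 and 6.33 in LEU– and 7.55, 7.87 and 7.91 in URA–. Every array of the 3 dropouts was below every SC array, and the lowest LEU– array was near background. In HIS– the FD score was 1.49 ± 0.39 (SD, n = 3; limma q = 1.65e-03), and it was 1.63 ± 0.78 in LEU– (q = 2.72e-05). For URA– it was 1.05 ± 0.20 (q = 6.90e-03). The downtag gave 0.98, 0.85 and 0.94 in the same media, each under the minimum of 1. The URA– call was also lost without the treated arrays numbered 1 (1.03), which were left out in every medium of PB at once. In MET– the arrays read 8.50, 8.11 and 8.40, for an FD score of 0.52.

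VPS25 (YJR102C), another ESCRT-II subunit, varied little between SC arrays. In PB they read 9.11, 9.25, 9.05 and 8.98. In HIS– the arrays read 8.23, 7.75 and 7.65, and in URA– 8.19, 7.57 and 7.66, with no overlap with SC. The FD score was 1.33 ± 0.31 in HIS– (n = 3; limma q = 1.54e-06) and 1.42 ± 0.34 in URA– (q = 8.86e-07). The other tag of VPS25 gave 0.90 in HIS– and 1.27 in URA–. In LEU– the arrays read 8.38, 7.94 and 8.18, an FD score of 0.90, and in MET– 8.24, 8.48 and 7.90, an FD score of 0.84, both under 1. VPS25 kept both dropout calls whichever SC array, or treated arrays of one number, were left out.

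VPS36 (YLR417W), the ESCRT-II subunit that binds ubiquitin and phosphatidylinositol 3-phosphate, read 9.08, 8.71, 9.05 and 8.49 in SC in PB. It fell to 7.91, 6.73 and 7.77 in LEU– and to 7.62, 7.83 and 7.67 in URA–, below every SC array in both. The FD score was 1.11 ± 0.65 in LEU– (n = 3; limma q = 2.61e-04) and 1.20 ± 0.11 in URA– (q = 4.47e-03). In HIS– the arrays read 8.40, 7.38 and 8.15 and the FD score of 0.72 was under the minimum. The URA– call was lost under quantile normalization, where the FD score was 0.94, and without the treated arrays numbered 3 (1.15). The LEU– call was lost without SC array 3 (0.93).

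SNF7 (YLR025W) was called in URA– alone among the dropouts, and its tags differed more than those of the ESCRT-II strains. The uptag read 10.07, 9.35, 9.11 and 8.84 in SC in PB and 8.61, 7.55 and 7.25 in URA–, for an FD score of 1.68 ± 0.72 (n = 3; limma q = 0.0302). In HIS– it read 9.31, 7.72 and 7.41 and in LEU– 8.57, 7.35 and 8.15, with FD scores of 1.51 and 1.08 that missed the threshold on q. For the downtag the HIS–, LEU– and URA– scores were -0.08, 0.53 and 0.94. The URA– call of SNF7 was lost without the treated arrays numbered 2 or 3 or SC array 1, 2 or 4, with FD scores of 1.08 to 1.55 and a q of up to 0.225.

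The wider reading added ESCRT-I and more of ESCRT-III and its disassembly in PB. STP22 (YCL008C), with 1 usable tag, read 8.61, 8.50, 9.10 and 8.68 in SC, 7.84, 7.05 and 7.25 in HIS–, 8.06, 7.64 and 6.82 in LEU– and 7.55, 7.38 and 8.09 in URA–. All 9 of these dropout arrays were below the lowest SC array. Its FD score was 1.40 ± 0.41 in HIS–, 1.01 ± 0.63 in LEU– and 1.10 ± 0.37 in URA–, each called. VPS20 (YMR077C), which starts the ESCRT-III filament, was called in LEU– at 1.57 ± 0.55 (7.13, 7.19 and 8.11 against 8.31 to 9.36 in SC). VPS4 was called in LEU– at 1.06 ± 0.64, with overlapping arrays. SRN2, of ESCRT-I, was not called, with FD scores of 0.76, 0.62 and 0.78 in HIS–, LEU– and URA–. Over all strains this reading called 2.16% for HIS–, 2.7% for LEU– and 2.24% for URA–, and it made 13 calls of these genes in the PB dropouts.

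SC array 1 of PB weighed on these calls. Without it the 8 dropout calls of the main reading, on SNF8, VPS25, VPS36 and SNF7, became 3, of which VPS25 in HIS– and in URA– were shared and VPS20 in LEU– was new, and SNF8 scored 0.93, 0.81 and 0.90 in HIS–, LEU– and URA–. Leaving out another SC array, or the treated arrays of one number in all media together, left 6 to 11 calls, 6 or 7 of them shared with the 8. Quantile normalization of the arrays gave 5 calls, 4 of them shared with the 8 and VPS20 in LEU– new, and SNF8 lost all 3 of its calls. With the replicate number as a block, there were 10 calls that held all 8 and added SNF7 in HIS– (1.34) and in LEU– (1.46). The mean of the 2 tags kept all 8.

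HIS–, LEU– and URA–, the 3 media without a nutrient made with the help of HIS3, LEU2 or URA3 on pHLUM, were then set directly against the 8 other dropout media of PB, a contrast chosen after the values above were seen, which uses no SC array. Its HIS–, LEU– and URA– arrays are those that gave the calls above, so it is not independent of those calls. In the main reading 4 of 9 genes differed by at least 1 with q under 0.05, against 2.1% of all strains. These were SNF7 at 1.51 ± 0.22 (SE), SNF8 at 1.41 ± 0.15, VPS25 at 1.06 ± 0.08 and VPS36 at 1.04 ± 0.13. SNF8, for example, averaged 8.94 over the 8 other dropouts and 7.53 over HIS–, LEU– and URA–. In the wider reading STP22 joined them at 1.22 ± 0.12, so that 5 of 25 genes were called, against 2.75% of all strains, and all 5 were ESCRT subunits. VPS20 (0.98) and SRN2 (0.88) followed just under the minimum.

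In that contrast 12 of the 13 ESCRT and disassembly strains had lower signal in HIS–, LEU– and URA– (median difference 0.88), 8 of them with q under 0.05. DOA4 (0.11), BRO1 (0.18), VPS27 (0.18) and DID4 (0.19) had small differences with q over 0.05. Of the 12 others, 2 had lower signal (median -0.06). The share of all strains with lower signal was not counted. Outside the ESCRT genes the largest differences were 0.51 for VPS17 and 0.29 for VPS21, both with q under 0.05 and under the minimum of 1. MET17 is also on the plasmid. With MET– counted beside HIS–, LEU– and URA–, the differences were 1.24 for SNF7, 1.21 for SNF8, 1.00 for VPS25 (under 1 before rounding), 0.97 for STP22 and 0.90 for VPS36, and SNF7 and SNF8 were called, against 1.46% of all strains. In BC, which carries no plasmid, the same contrast ranged from -0.26 to 0.39 over 15 genes and called 0 of all strains. For these genes limma gave 0 of the 15 an unadjusted p under 0.05, and 1 of 9 in the main reading.

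**Figure D3:**
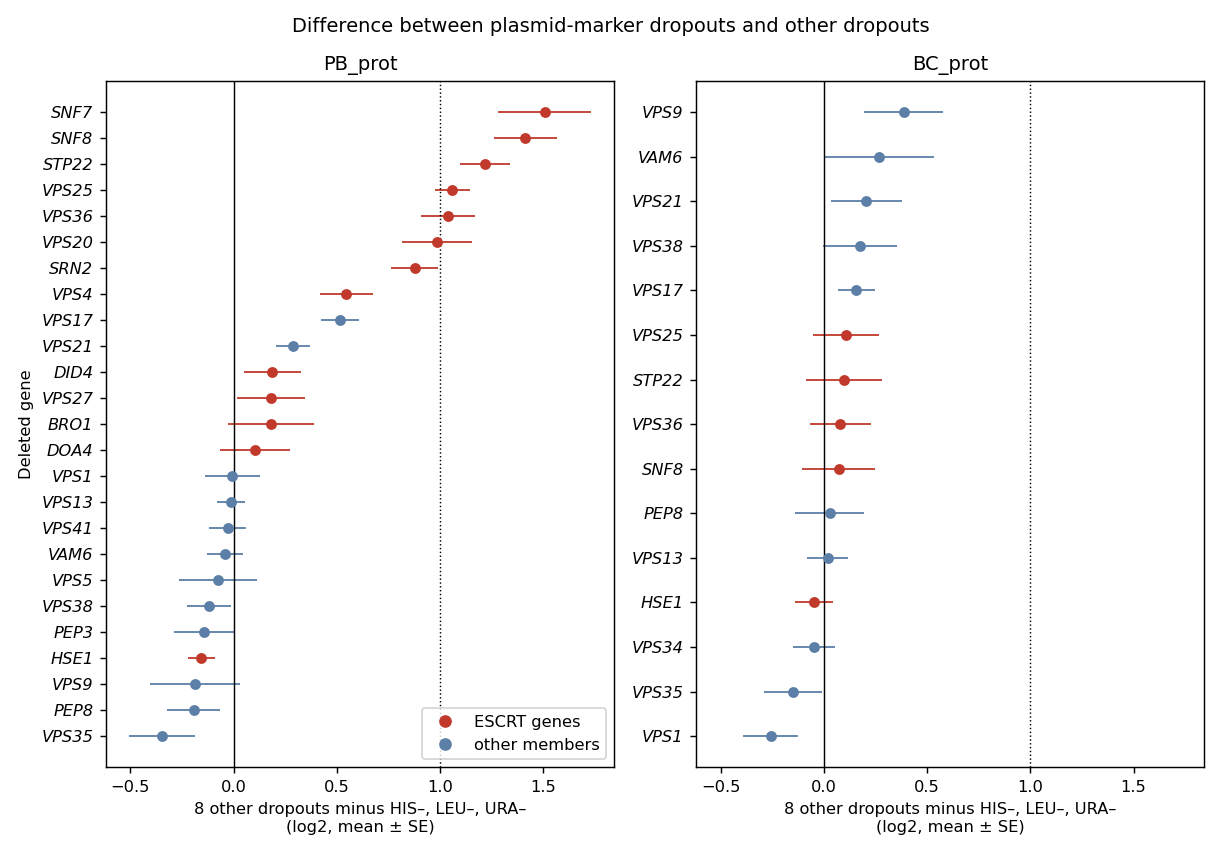
Mean log2 intensity in the 8 other dropout media minus that in HIS–, LEU– and URA– for each strain detected in PB or BC, with standard errors; ESCRT subunits are red and the dotted line marks a difference of 1. SNF7, SNF8, STP22, VPS25 and VPS36 lie past the line in PB, and the BC strains lie between -0.26 and 0.39.

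In MM, which lacks all these nutrients at once, PB calls fell on the same complex. VPS25 read 8.12, 7.89, 7.85 and 8.02 in the 4 MM arrays and VPS36 8.06, 7.69, 7.25 and 6.98, below all 4 SC arrays of each strain. The FD scores were 1.13 ± 0.12 for VPS25 (n = 4; limma q = 5.74e-07) and 1.40 ± 0.48 for VPS36 (q = 4.74e-05). SNF8 read 8.01, 7.92, 8.47 and 7.11, an FD score of 0.96, just under the minimum. The VPS36 call was lost without PB SC array 1 (FD score 0.64), and the VPS25 call was kept whichever SC array, or treated arrays of one number, were left out. VPS20 was called in the wider reading at 1.20 ± 0.77 with overlapping arrays, where 4.59% of all strains were called.

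SNF8, VPS25, VPS36 and STP22 were present in BC and did not reach a call there, and SNF7, VPS20 and VPS4 were not detected in its SC arrays by the rule used. In BC, SNF8 read 9.05, 8.43 and 8.83 in SC and 10.08, 8.60, 8.56 and 9.51 in MM, an FD score of -0.22. VPS25 read 9.03, 9.24 and 8.85 in SC and 9.25, 8.68, 8.70 and 9.41 in MM, an FD score of 0.05. The MM and SC arrays of both strains overlapped. In HIS–, LEU– and URA– the FD scores of SNF8, VPS25, VPS36 and STP22 in BC lay between -0.17 and 0.63. Over the 12 BC dropouts none of the 9 genes tested was called, with 0.0377% of all tests called (0.617% of strains in MM), and limma gave 1 of 9 an unadjusted p under 0.05 in ARG– and in LEU– and none in the other dropout media.

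The difference between collections was tested as an interaction in limma. In MM the FD score of SNF8 was 1.58 higher in PB than in BC (95% interval 0.71 to 2.44, q = 0.0254), and that of VPS25 was 1.10 higher (0.45 to 1.75, q = 0.0447). Of all strains tested, 2.77% differed between PB and BC in MM. VPS36 was 1.01 higher in PB than in YKO in MM (0.44 to 1.58, q = 0.0211), where 4.47% of all strains differed. These were the 3 differences that passed among the genes in the main reading, over 51 contrasts. In HIS– the PB minus BC difference of VPS25 was 1.20 (0.50 to 1.89, q = 0.0853), and in LEU– that of SNF8 was 1.64 (0.71 to 2.57, q = 0.0570), neither past the threshold. Without PB SC array 1, or without PB SC array 3, none of the 3 passed, and the VPS36 difference from YKO was 0.33 without the first. Without BC SC array 1 the VPS36 difference passed alone, and without the treated arrays numbered 4 the SNF8 difference in LEU– did. With the replicate number as a block 17 differences passed, among them VPS25 in HIS– (1.31, q = 5.1e-03) and SNF8 in LEU– (1.89, q = 6.5e-04). The shares of all strains above belong to the fit without the block, and none is given for the block. In the wider reading VPS13 also differed with cisplatin, with a PB minus YKO difference of -0.90 (-1.36 to -0.43, q = 0.0423) from FD scores of -0.36 in PB and 0.60 in YKO, where 1.02% of all strains differed.

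The MM of YKO held the missing nutrients. VPS36 read 9.93, 9.82, 9.86 and 9.83 in SC and 9.46, 9.52 and 9.64 in MM, an FD score of 0.33 ± 0.09 with no overlap, and SNF8 scored 0.35. VPS25, tested in the wider reading, read 8.59, 8.08, 8.04 and 8.32 in SC and 7.05, 7.96 and 7.43 in MM, an FD score of 0.77 ± 0.46 that was not called (q = 0.356), and SRN2 at 0.75 and VPS20 at 0.67 were not called either. STP22 scored 0.70 ± 0.36 (q = 0.0409), under the minimum of 1. No gene was called in the main reading in YKO MM, with 1.14% of all strains called and 6 of 20 genes at an unadjusted limma p under 0.05. In the wider reading BRO1 was called, where 1.17% of all strains were. BRO1 (YPL084W) read 9.47, 9.58, 9.73 and 9.87 in SC and 8.46, 7.57 and 8.26 in MM, with no overlap and an FD score of 1.40 ± 0.47 (n = 3; limma q = 3.21e-04). HIS–, LEU– and URA– have no counterpart in YKO, so the collections could not be compared there.

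**Figure D4:**
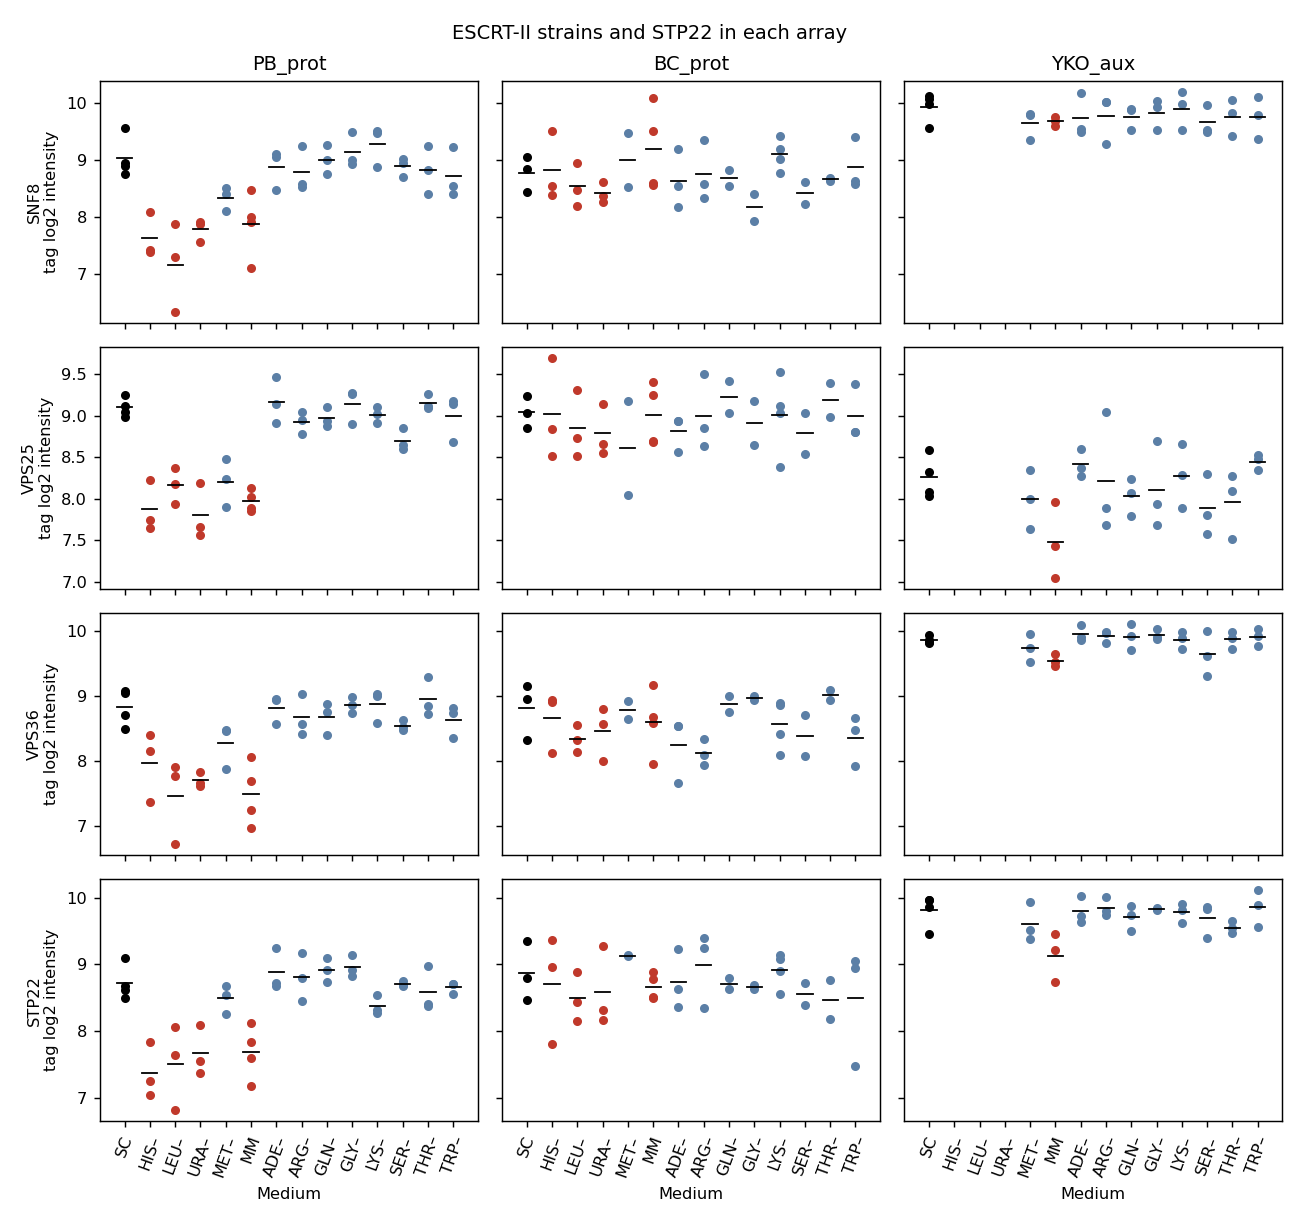
Log2 tag intensity of SNF8, VPS25, VPS36 and STP22 in every array of SC and the SC-based media in PB, BC and YKO, with bars at the means; black points are SC and red points HIS–, LEU–, URA– and MM. In PB the red points of SNF8, VPS25 and VPS36 in LEU– and URA– lie below all SC points, and in BC red and black points overlap.

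Other roles showed small values in PB. Over HIS–, LEU–, URA– and MM the FD score ranged from -0.64 to -0.18 for VPS35, from -0.41 to 0.04 for PEP8 and from -0.70 to 0.01 for VPS5, all of the retromer, and from 0.29 to 0.73 for VPS17. VPS38 ranged from -0.40 to 0.19, VPS13 from -0.07 to 0.20, VPS21 from -0.05 to 0.21 and VPS9 from -0.86 to 0.16. The tether strains VPS41 (-0.09 to 0.34), VAM6 (-0.35 to 0.03) and PEP3 (-0.63 to 0.45) were not called in these media. Within the ESCRT pathway HSE1 (-0.27 to -0.08) and VPS27 (-0.32 to 0.10) of ESCRT-0 and DID4 (-0.38 to 0.12) of ESCRT-III were not called either, and DOA4 reached 0.70 and BRO1 0.87. None of these strains was called in any dropout medium in PB.

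PEP7 (YDR323C) encodes Vac1, the tethering factor that binds phosphatidylinositol 3-phosphate and acts with Vps21 and Vps45, and it was called in ARG– in YKO, the only collection where it was present. The downtag read 9.54, 9.38, 8.69 and 8.66 in SC and 8.43, 7.41 and 8.01 in ARG–. SC arrays 3 and 4 were the lower of the 4 and lay just above the highest ARG– array, so the groups did not overlap. The FD score was 1.03 ± 0.51 (n = 3; limma q = 0.0466), 1 call of 180 tests of these genes in YKO dropouts, where 0.144% of all tests and 0.348% of strains in ARG– were called. The uptag gave 1.41. In the 8 other dropouts and MM its FD score ranged from 0.15 to 0.59.

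The PEP7 call was close to its limits. The FD score ran from 0.68 to 1.49 with an SC array or the treated arrays of one number left out, and the call was lost without the treated arrays numbered 2 or 3 or SC array 1 or 2. It was lost in the wider reading at the same score (q = 0.0651), and under quantile normalization (1.44). With the replicate number as a block it was 1.25 (q = 6.8e-05). VPS3, a CORVET subunit, had a similar score in ARG– in YKO: 8.20, 8.20 and 8.76 against 9.39, 9.57, 9.29 and 8.74 in SC. Its arrays overlapped, its FD score of 1.13 was not called, and it was called with the block at 1.03 (q = 5.1e-03) and without SC array 4 at 1.19. In PB and BC the brighter PEP7 tag of each SC array read 4.73 to 5.82, near background, so ARG– could not be compared there.

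**Figure D5:**
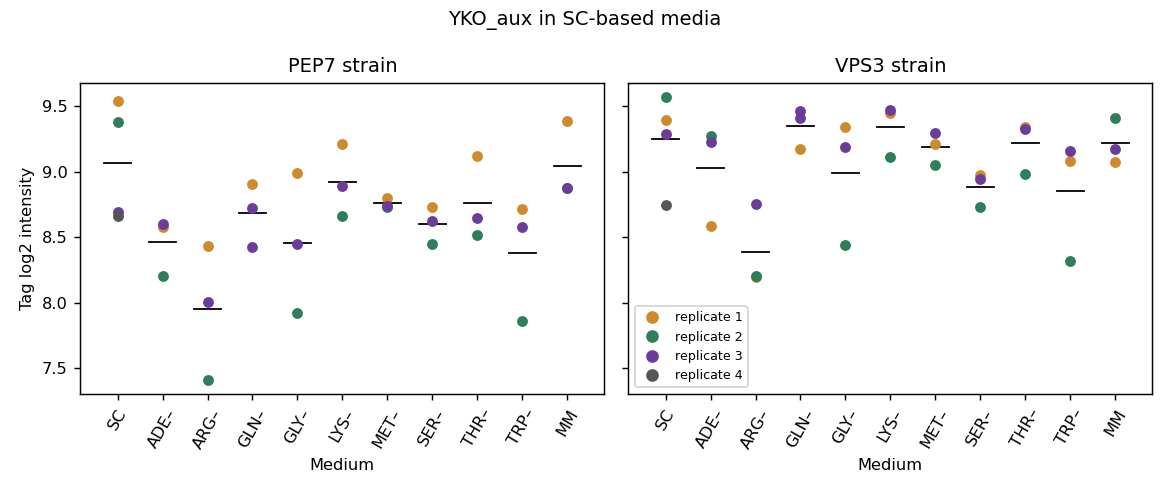
Log2 intensity of PEP7 and VPS3 in each YKO array of SC, the dropout media and MM, coloured by replicate number. The 3 ARG– points of PEP7, at 7.41 to 8.43, lie below the 4 SC points at 8.66 to 9.54, and those of VPS3 overlap SC.

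On the rich-medium side SNF7 was called in PB with 32 µM CCCP. The downtag read 8.69, 8.58 and 8.82, below all 8 arrays of YPD with DMSO, which ran from 9.37 to 10.11, for an FD score of 1.01 ± 0.12 (n = 3; limma q = 2.30e-04). This was 1 of 7 genes, with 3.22% of all strains called. The call was lost without the treated arrays numbered 1 (0.95), at 0.77 when YPD arrays were pooled into the control, at 0.95 with the replicate block and at 0.96 with quantile normalization. With 6 µM FCCP, a different agent and dose, the FD score was 0.70. In YPG SNF7 scored 0.81 ± 0.16 (n = 4) and was under the minimum, and in YKO it scored 0.41 with CCCP.

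PEP3 (YLR148W), the class C core subunit, and VPS1 (YKR001C) were called with cisplatin in PB in the wider reading, where 1.32% of all strains were called. PEP3 read 7.93, 8.09, 7.77 and 7.82 with cisplatin and 8.85 to 9.72 in YPD, without overlap, for an FD score of 1.41 ± 0.14 (n = 4; limma q = 1.56e-05). VPS1 read 7.36, 8.36, 6.12 and 5.81 and scored 1.74 ± 1.18, with 1 array within the YPD range of 7.86 to 8.77. PEP3 was also called with CCCP at 1.01 ± 0.44, with overlapping arrays, where 4.16% of all strains were. In YPG, medians of 0.24 over 26 genes in PB and 0.32 over 28 in YKO stood against -0.03 and 0.02 over all strains, and no gene was called in this wider reading (4.83% and 2.62% of all strains were), with 13 and 5 genes at an unadjusted limma p under 0.05. In the main reading no gene was called with DMSO (0.0865% of all strains in YKO, 0 in PB and BC) or the quinolone (0.0865% in YKO, 0 in PB, 0.0878% in BC), in YPG (4.13% in PB, 1.86% in YKO, 0.746% in BC), with cisplatin (1.11%, 0.865% and 1.23%) or with FCCP (2.02%, 1.6% and 0.527%). With CCCP none was called in YKO (1.9%) or BC (0.439%). For these comparisons limma gave an unadjusted p under 0.05 for 0 to 6 of the 7 to 15 genes tested. No share of all strains at that p was counted, here or for the wider reading of YPG.

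Genes of neighbouring pathways, listed by function, were called rarely, apart from the GARP and Ypt6 genes. In the main reading there were 0 calls for the ESCRT accessory genes, the AP-3 adaptor, vacuole fusion, endosomal cargo and ion transport, PI(3,5)P2 synthesis and the V-ATPase. Few of their strains were tested. In the SC-based media of PB there were 2 ESCRT accessory, 1 AP-3, 1 vacuole fusion, 2 cargo and ion and 3 PI(3,5)P2 strains. No V-ATPase strain was tested in PB in this reading. The V-ATPase, the proton pump of these compartments, was detected in SC for only 4 of 18 genes in YKO, 2 in PB and 5 in BC. The GARP and Ypt6 genes, which receive vesicles from endosomes at the Golgi, gave 7 calls. Of these, 4 came from 24 YPD-based tests in BC and 3 from 18 in YKO. The 4 in BC were with the uncouplers (0.439% of all strains with CCCP and 0.527% with FCCP). VPS51 of that group scored 2.09 with CCCP and 3.19 with FCCP in BC, and 1.58 and 2.54 in YKO (1.9% and 1.6% of all strains), with RIC1 at 2.01 and YPT6 at 1.90 with FCCP in BC. In the RIM101 pathway, which uses ESCRT subunits to sense pH, RIM9 was called in YKO in YPG at 1.26 (n = 2; 1.86% of all strains). The wider reading kept these calls, added 5 for the GARP and Ypt6 genes in PB with the uncouplers (4.16% of all strains with CCCP and 2.91% with FCCP), and called MON1 of vacuole fusion in PB URA– at 1.37 (2.24%) and APS3 of AP-3 in YKO TRP– at 2.63 (0.39%).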

How the data were processed

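The authors deposited 1 table of log2 tag intensities for 236 TAG4 arrays, masked for hybridization artefacts and normalized within sets defined by collection and medium, with the 15 starting pool arrays treated apart. Their methods also state that replicates were batch corrected with ComBat. That correction preceded the tests here and can narrow the spread the p-values measure, and it bears on the replicate block, as does a replicate number that repeats in YKO GLN– and BC LYS–. No count or depth exists for arrays, so the number of arrays limits the precision. Here 219 arrays entered comparisons and 2 BC arrays whose labels disagree were left out.

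Presence, FD scores and calls were computed as described with R 4.3.3 and limma 3.58.1 (lmFit and eBayes over all arrays of a set, Benjamini-Hochberg over all strains), on the tag that varied least, relative to its mean, over the control arrays. SC was the control for dropouts and MM, YPD for YPG, cisplatin and DMSO, and YPD with DMSO for CCCP, FCCP and the quinolone. Figures used Python 3.11.15 and matplotlib 3.10.9. The scripts were tested on simulated data. The MM with uracil of BC had 1 array and was not tested.

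The 39 genes, the neighbouring lists and the contrast between media were chosen with earlier results of these data known. Every gene is accounted for, called genes are named up to 12 a comparison, array values are given for genes called in 2 or more conditions, PEP7 is always described, and at most 3 called genes are named per neighbouring list. All 39 symbols matched the RefSeq table. Names of the strains follow the deposited identifiers. No sequence of a tag, promoter or protein was used here.

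Arrays with the same replicate number were counted as deviating together when a comparison had at least 3 pairs and every correlation was over 0.1. This held in 12 of 13 SC-based comparisons in PB, 8 of 10 in YKO and 1 of 9 in BC. It held in 0 of 6 YPD-based comparisons in each. The BC dropouts checked other than LYS– had only 2 pairs each and did not count, though their correlations ran from 0.46 to 0.68. YKO GLN– likewise had 2 pairs, at 0.29 and 0.64. The block is therefore given as an alternative. The alternatives were presence by 1 tag, no presence filter, a posterior over 0.9, the mean of the tags, the other tag, quantile normalization, the replicate block, pooled YPD controls, starting pool presence and arrays left out (61 refits), which drop either 1 control array or the treated arrays of one number in every medium of a collection together.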

Additional observations from a re-analysis of the deposited data

Results flagged for a closer look

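The difference in FD score between collections passed its own limma interaction test for 3 strains, all ESCRT-II and all in MM. SNF8 was 1.58 higher in PB than in BC, VPS25 was 1.10 higher in PB than in BC, and VPS36 was 1.01 higher in PB than in YKO. In MM 2.77% of all strains differed between PB and BC and 4.47% between PB and YKO. Few of the 39 genes could be tested: 91 tests over 13 SC-based contrasts of PB with BC, and 70 over 10 with YKO. VPS25 had only 1 tag present in YKO and was not among the latter. With 1 SC array left out, or the treated arrays of one number together, these differences ran from 0.88 to 1.98, 0.98 to 1.29 and 0.33 to 1.24. With the replicate number as a block 17 differences passed, and these included other media (HIS–, LEU–, URA–, GLY– and THR–) and other strains (SNF7, VPS17 and VPS38). The share of all strains passing with the block is not given here, so 17 is not read as a result about these genes. In MM the rule for arrays deviating together was met in no collection. PB carries its markers on a plasmid, BC in the genome, and the YKO medium was supplemented, and the part of each was not tested. No array stood apart from its group in any of the 18 groups of strain and condition examined. Groups of 3 arrays were too small for this check and were not examined. These include every treated group called in a dropout medium or with CCCP.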

How the results depend on the processing

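Direction was followed for the 12 called FD scores, the 3 called differences between collections and the 4 called contrasts of PB media. None of these changed sign under any alternative run, and the mean of the tags kept all 12 calls. Uncalled scores were not followed, and the uptag and downtag of SNF7 in PB HIS– gave scores of opposite sign. Requiring 1 present tag instead of all gave 25 genes present in PB and 15 in BC, 13 PB dropout calls, 2 PB uncoupler calls, 2 PB cisplatin calls, 1 YKO MM call and 0 YKO dropout calls. Without a presence filter there were 13, 3, 2, 1 and 0 of these calls, 4 in PB MM and 2 with the uncouplers in BC, and 5 gains were called on strains that did not pass that filter in those controls (VPS5 and VPS3 in BC THR–, a DID4 strain in BC YPG and in PB MM, VPS16 in YKO MM). A posterior over 0.9 left 5 genes present in PB, and the starting pool arrays gave 16. Quantile normalization gave 5 PB dropout calls, 0 PB uncoupler calls, 0 YKO dropout calls and 1 BC call in YPG, and the mean of the tags gave 1 BC uncoupler call. The replicate block gave 2 YKO dropout calls, 0 PB uncoupler calls and 17 differences between collections, and pooled YPD controls gave 0 PB uncoupler calls. Beyond these and the PB dropout calls given above, the block moved no count by over 1.5 times.

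Leaving out 1 SC array, or the treated arrays of one number together, gave 3 to 11 PB dropout calls, 2 to 3 in PB MM, 0 to 1 with the uncouplers in PB and in BC, 0 to 2 YKO dropout calls, 0 to 4 differences between collections, and 0 to 0 for every other count of calls. Genes with every tag present ran from 19 to 21 in YKO, 11 to 11 in PB and 9 to 12 in BC. The 3 PB dropout calls were those without SC array 1, the 2 YKO dropout calls those without SC array 4, and the 1 BC uncoupler call, VPS36 with CCCP, that without treatment arrays numbered 3. On the strain's other tag, 6 of the 12 calls fell below 1. The causes were not tested. With 2 to 4 arrays a condition, and treated PB values often near the presence boundary of 7.98, FD scores of low strains are compressed.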
